A study of Mus musculus with 6 samples.

Results

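Chromatin accessibility was examined at 10 genes that encode transcription factors used across the leukocyte lineages: Runx1 and its partner Cbfb, Ikzf1, Myb, and the ETS factors Fli1, Erg, Elf1, Elf4, Etv6 and Gabpa. Accessible sites were taken from ATAC-seq, an assay in which the Tn5 transposase inserts adapters into open chromatin, on peripheral blood leukocytes of male C57BL/6j mice. The control group (n = 3 libraries) came from mice kept in normoxia, and the HADA group (high-altitude de-acclimatization, n = 3 libraries) came from mice that had lived in a hypobaric hypoxia chamber simulating high altitude and were then moved back to normal oxygen. No transgene or drug is given for either group. The cells were all leukocytes left after red cell lysis according to the methods, although the study's results name them mononuclear cells, and the day of blood collection after the return was not stated. The labels number the replicates without saying that each is a separate mouse, so the p-values below measure only the spread between these libraries. The genes were chosen for their place in a pan-leukocyte factor group, and a peak was counted for a gene when its summit lay in the gene body or within 3 kb of an annotated start (GENCODE M39, GRCm39). Peaks overlapping by at least 1 base between libraries were merged, which gave 62876 regions in all, of which 122 belonged to these 10 genes, out of 15397 protein-coding genes with a peak.

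RUNX1 is a DNA-binding factor that pairs with CBFβ, the non-DNA-binding subunit that stabilises it on DNA, and it is needed for the formation of blood stem cells and for lymphoid and megakaryocytic differentiation. Ikaros, the product of Ikzf1, is a zinc finger factor that recruits chromatin remodelling complexes in lymphocyte development, and MYB maintains progenitor proliferation. The ETS factors share a DNA-binding domain that reads a GGAA core. FLI1 and ERG are close relatives active in stem cells, megakaryocytes and endothelium, ELF1 and ELF4 act in T and NK cells among others, ETV6 is mainly a repressor, and GABPα is a broadly expressed activator that works with GABPβ.

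The files gave peaks of each library, and the height of a peak at its summit (the pileup of fragments) was solved from the deposited fold enrichment and p-value. Height is given below as relative height, the summit pileup divided by the median summit pileup of the 23970 regions with a peak in all 6 libraries, so that 1 is the median shared region of the same library. Differences are log2 relative height, HADA minus control, with the standard error, from limma over all 23970 shared regions, and a region was called at a Benjamini-Hochberg adjusted p under 0.05. The median shared region itself stood 0.38 (log2) higher over the library background in HADA than in control, and this shift is taken out of every relative height.

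The control libraries held 41475, 41214 and 34045 peaks and the HADA libraries 44401, 44044 and 45799, counting the autosomes, X and Y (21 chromosomes) only, so control 3 had the shortest list. General leukocyte markers were open in every library, with a shared start region at 7 of 7 genes, of which none was higher in HADA and 2 were lower, Laptm5 (-0.78, adjusted p = 0.0237) and Cd53 (-0.96, adjusted p = 0.00986). Of their 17 shared regions 6 were lower. Markers of particular cell types moved with the groups. B cell marker genes held 24, 20 and 7 peaks in control and 44, 39 and 42 in HADA, and 4 of the 4 with a shared start region were higher (median log2 1.99). Neutrophil marker genes were lower at 6 of 6 shared start regions (median -1.75) and monocyte marker genes at 4 of 4 (median -1.12). T cell marker genes were higher at 2 and lower at 1 of 7. In peaks per 10000 of the library, B cell genes ranged from 2.06 to 5.79 over the controls against 8.85 to 9.91 over the HADA libraries. The same ranges were 4.85 to 6.27 against 6.99 to 7.21 for T cell genes, 3.397 to 5.87 against 2.40 to 3.83 for neutrophil genes and 3.13 to 3.52 against 2.04 to 2.70 for monocyte genes. The NK cell list had 1 shared start region, which was not called. Of the eosinophil and basophil genes 4 of 6 had no peak in any library, as had 3 of the 7 erythroid and platelet genes, of which 1 of 2 shared start regions (Klf1) was higher. The part of these marker differences in the results below was not tested, and in bulk blood a change in the number of cells of a type and a change in accessibility per cell cannot be told apart.

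Across the 10 genes, few start regions passed the test and distal regions moved in both directions. Of the 122 regions, 41 had a peak in all 6 libraries, 7 in all HADA and no control libraries, 4 in all control and no HADA libraries, and 70 in other combinations. Of the 41 shared regions, 9 were higher in HADA (21.95%) and 12 were lower (29.3%), and 20 were not called. Over the genome 18.4% of shared regions were higher and 24.5% were lower, so the members' shares lay near the background, and their median difference was -0.02 beside -0.04 for all shared regions. At an unadjusted p under 0.05 the members' counts were 10 and 13. When pileups were scaled to the library background without centring, 14 member regions were higher and 9 were lower, with 7711 and 4214 over the genome.

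The calls were then read by position. Within 3 kb of a start of the gene, 2 of 15 shared regions were higher and 2 were lower (median -0.03), where 21.5% and 13.2% of all shared regions within 3 kb of any start were called higher and lower. Beyond 3 kb, 7 of 26 were higher and 10 were lower (median 0.02), where the genome gave 13.4% higher and 43.1% lower (median -0.66) beyond 3 kb of any start. Of these 26 regions, 6 lay within 3 kb of a start of another gene, and of the 20 that did not, 5 were higher and 8 were lower (25% and 40%, median 0.02). Of the 41 shared regions 30 lay in introns.

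**Figure D1:**
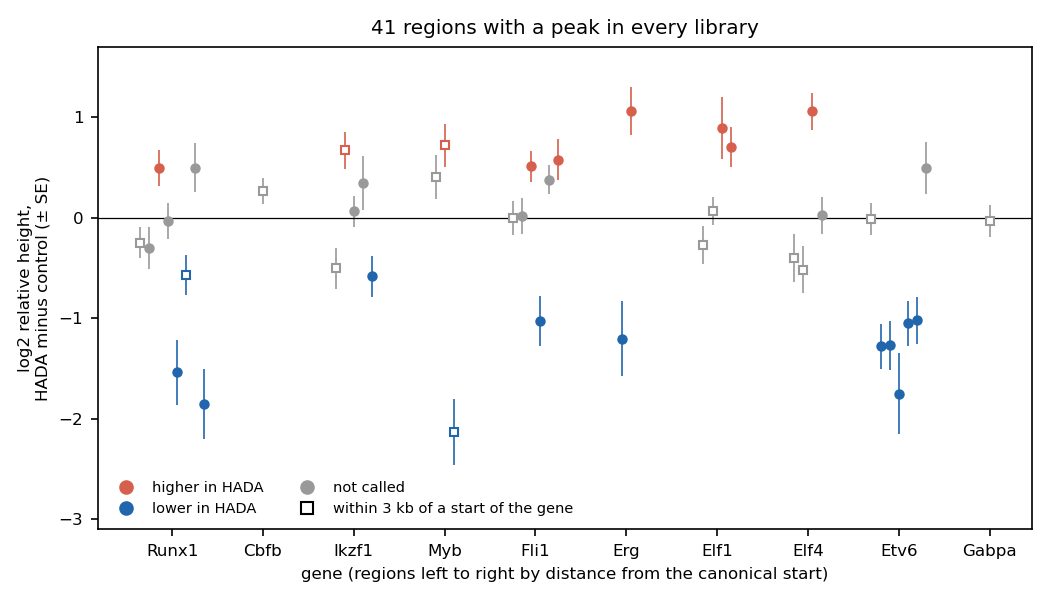
Log2 relative height, HADA minus control, with its standard error (vertical axis) for the 41 shared regions, grouped by gene and ordered by distance from the canonical start. Red points were higher, blue points lower and grey points not called, and open squares lie within 3 kb of a start. Etv6 holds 5 of the 12 lower regions, and the lowest value is a Myb region at -2.13.

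Runx1 has a distal and a proximal promoter far apart. The gene (chr16:92398354-92623037, minus strand) held 18 regions, of which 8 were shared. Of these 3 were lower and 1 was higher, shares of 37.5% and 12.5% beside 24.5% and 18.4% over all shared regions of the genome. The distal promoter region (chr16:92621773-92623467) had relative heights of 3.29, 3.78 and 4.55 in control and 3.39, 3.16 and 3.15 in HADA. The groups overlapped, and the difference was -0.25 ± 0.15 (adjusted p = 0.209, limma). Near its summit, in the first exon, 2 copies of the RUNX letters TGTGGTT lie side by side, and they are shown in capitals because they are the letters that the encoded protein family reads.
Runx1 start (chr16:92622913-92622942): acccaactTGTGGTTcTGTGGTTgtttatg

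The distal Runx1 region with the highest mean pileup over the 6 libraries, 205.1 kb downstream of the canonical start and in an intron (chr16:92417457-92418543), was lower in HADA. Its relative height was 2.45, 2.76 and 6.14 in control and 1.32, 0.948 and 0.704 in HADA, a difference of -1.86 ± 0.35 (adjusted p = 0.00698). Every control library lay above every HADA library, and control 3 stood far above the other controls. Without control 3 the difference was -1.49 (adjusted p = 0.00121), and the call was lost only on the scale of the deposited log2 fold enrichment (-0.53, adjusted p = 0.0536). An intronic region at 110.6 kb (chr16:92511660-92513162) had 1.05, 0.800 and 1.88 in control and 0.511, 0.364 and 0.346 in HADA (-1.54 ± 0.32, adjusted p = 0.0087). The HADA libraries were again below all controls, and this call was lost on the fold enrichment scale and its ranks. Its median summits stood 285 bases apart between the groups. The heights were therefore not read at 1 position, and the window below does not hold both. The region at -1314 bases from an annotated start near the proximal promoter (chr16:92493644-92495885) had 1.55, 1.49 and 2.20 in control and 1.29, 1.03 and 1.17 in HADA (-0.57 ± 0.20, adjusted p = 0.0428). This call was near the threshold and was lost in 8 of 14 alternatives. The windows of 100 bases on each side of the summit at both falling distal sites are given for their sequence, with the C/EBP letters TTGCNNAA and the MYB letters CAACNG in capitals where they occur.
Runx1 +110.6 kb (chr16:92512306-92512506): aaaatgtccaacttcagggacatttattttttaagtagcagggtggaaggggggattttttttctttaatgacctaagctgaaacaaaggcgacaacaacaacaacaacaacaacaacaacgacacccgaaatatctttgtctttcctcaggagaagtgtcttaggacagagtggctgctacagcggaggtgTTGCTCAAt
Runx1 +205.1 kb (chr16:92417852-92418052): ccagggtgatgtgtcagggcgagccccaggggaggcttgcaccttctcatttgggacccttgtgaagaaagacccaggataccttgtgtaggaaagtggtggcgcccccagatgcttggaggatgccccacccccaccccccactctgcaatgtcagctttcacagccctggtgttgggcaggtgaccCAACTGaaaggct

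A single shared Runx1 region was called higher, 24.4 kb into the intron between the promoters (chr16:92597622-92599124), named after its values were seen. It had 1.24, 0.982 and 0.980 in control and 1.33, 1.61 and 1.57 in HADA (0.50 ± 0.18, adjusted p = 0.048), and the call was lost in 9 of 13 alternatives. The region at 181.1 kb had 0.397, 0.364 and 0.510 in control and 0.511, 0.701 and 0.580 in HADA. Its median summits stood 241 bases apart between the groups. The difference was as large but was not called (0.50 ± 0.24, adjusted p = 0.118). Scaled to the library background it was called higher (0.88, adjusted p = 0.0203). Low peaks in 1 group only were found at 58.5 kb in HADA (relative heights 0.109, 0.169 and 0.148) and at 67.7 kb in control (0.172, 0.327 and 0.245). The latter window is a run of CA repeats.

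Cbfb showed 1 strong region, at its start (chr8:105896804-105898729), with relative heights of 2.97, 2.69 and 2.94 in control and 3.42, 3.34 and 3.56 in HADA. The HADA libraries lay above the controls by a small margin (0.26 ± 0.13), and the test did not call it (adjusted p = 0.122). Scaled to the library background the same region gave 0.64 (adjusted p = 0.0266). A distal region at 38.3 kb was found in 1 control library (0.236) and 1 HADA library (0.160).

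Ikzf1 had opposite values at its main start and at a start further inside the gene. The main start region (chr11:11634944-11636849) had relative heights of 2.55, 2.45 and 4.12 in control and 2.01, 2.21 and 2.05 in HADA. All HADA libraries were below the controls, but the difference of -0.50 ± 0.21 was not called (adjusted p = 0.074). At an alternative start 4.6 kb downstream (chr11:11639999-11640807), in an untranslated exon, control had 1.53, 1.09 and 1.04 and HADA had 1.80, 1.96 and 1.99. This region rose by 0.67 ± 0.19 (adjusted p = 0.0197), and the groups did not overlap. The call was lost on the log2 fold enrichment (adjusted p = 0.0608) and without HADA 1, HADA 2 or HADA 3 (adjusted p = 0.0532, 0.0774 and 0.0687). The tallest distal Ikzf1 region by mean pileup, at 77.8 kb (chr11:11712977-11713673), had 1.93, 1.75 and 2.76 in control and 1.38, 1.58 and 1.26 in HADA (-0.58 ± 0.20, adjusted p = 0.0416), a call that was lost in 7 of 14 alternatives.

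Introns of Ikzf1 also held a pair of group-specific peaks. The region at 44.6 kb was open in the 3 control libraries (0.983, 1.04 and 1.43) and had no peak in HADA, and that at 57.1 kb was open in the 3 HADA libraries (0.467, 0.416 and 0.444) and had none in control. The control-specific site was as tall as the median shared region, whereas the HADA-specific site was below it. The windows at the summit of the peak with the highest pileup are printed as the sequence of these sites, although at 57.1 kb the summits were spread over 1000 bases. Capitals mark a TCF7 match (ATCAAAG) and a MYB match at 44.6 kb, and an Ikaros match (TGGGAA) and a MYB match at 57.1 kb.
Ikzf1 +44.6 kb (chr11:11680208-11680408): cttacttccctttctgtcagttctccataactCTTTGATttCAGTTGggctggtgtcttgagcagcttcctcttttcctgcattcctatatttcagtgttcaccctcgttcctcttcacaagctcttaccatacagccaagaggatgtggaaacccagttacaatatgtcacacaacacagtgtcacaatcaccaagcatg
Ikzf1 +57.1 kb (chr11:11692662-11692862): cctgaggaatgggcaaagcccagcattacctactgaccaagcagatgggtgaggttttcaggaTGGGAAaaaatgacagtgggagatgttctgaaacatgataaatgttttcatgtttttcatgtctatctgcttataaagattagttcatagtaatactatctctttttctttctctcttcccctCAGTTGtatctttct

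**Figure D2:**
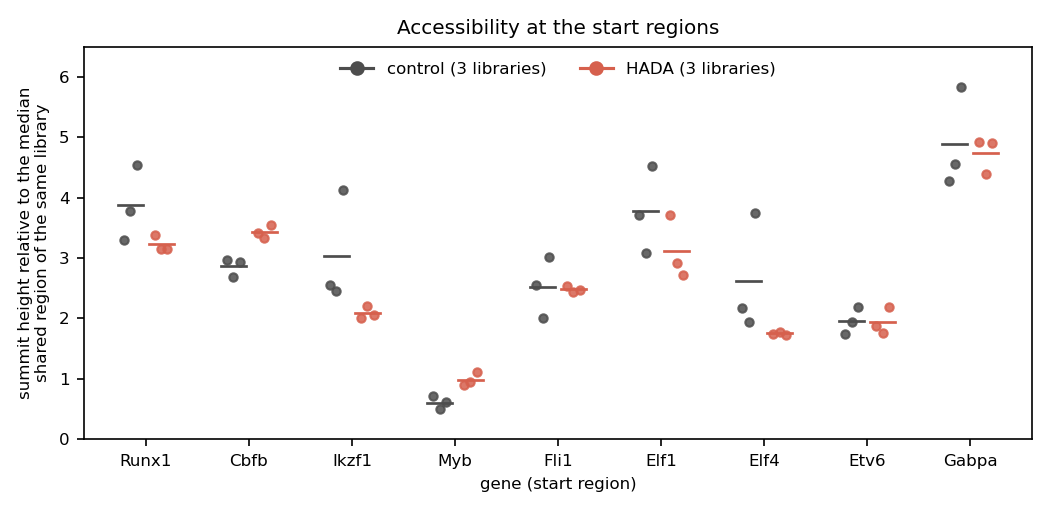
Relative height (vertical axis, 1 is the median shared region of the library) at the start region of the 9 genes that had one. Points are libraries and lines are group means, with control in grey and HADA in red. Gabpa is tallest (means 4.89 and 4.75) and Myb is lowest (0.603 and 0.987).

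Myb carried the greatest single loss among the members and a gain close to it. The region in its first intron (chr10:21034161-21036127), a segment known for blocking elongation of the Myb transcript, had relative heights of 0.707, 0.491 and 0.612 in control and 0.902, 0.948 and 1.11 in HADA. It rose by 0.72 ± 0.21 (adjusted p = 0.0248) with no overlap of the groups. It held 9 peaks over the 6 libraries, so it merged several summits, and the call was lost in 7 of 14 alternatives. This region also overlaps the locus Gm67068, and the starts of Gm67068 and Gm67071 lie within 3 kb, so it cannot be given to Myb alone. The other start region, at -273 bases from the gene's start (chr10:21036702-21037537), had 0.466, 0.364 and 0.408 in control and 0.576, 0.545 and 0.506 in HADA, which was not called (0.40 ± 0.22, adjusted p = 0.161).

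At 16.1 kb, the Myb region chr10:21020503-21021360 had 0.638, 0.636 and 1.14 in control and 0.239, 0.169 and 0.136 in HADA. The HADA libraries held less than any control, a difference of -2.13 ± 0.32 (adjusted p = 0.00628), or 4.39-fold lower. This call was kept in each of the 13 alternatives that gave a value. The region overlaps an exon of an alternative Myb transcript and the neighbouring locus Gm26577, whose start lies within 3 kb, so it cannot be given to Myb alone. The Myb region beyond 3 kb of a start, at 32.7 kb, had low peaks in HADA 1 and HADA 2 (0.130 and 0.156) and none in the other libraries. No searched letters occur in the window at 16.1 kb, which is shown as the site with the greatest fall.
Myb +16.1 kb (chr10:21020696-21020896): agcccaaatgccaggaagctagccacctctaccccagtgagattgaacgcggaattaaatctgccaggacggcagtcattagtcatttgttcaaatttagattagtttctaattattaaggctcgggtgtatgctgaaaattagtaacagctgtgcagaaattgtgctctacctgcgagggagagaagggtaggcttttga

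Fli1 had neighbouring intronic regions that moved in opposite directions. The start region (chr9:32450526-32452944) had relative heights of 2.55, 2.00 and 3.02 in control and 2.53, 2.44 and 2.47 in HADA, and the groups overlapped (-0.00 ± 0.17, adjusted p = 0.985). The median summit stood 892 bases apart between the groups in this merged region, so the heights were not read at 1 position. Further downstream, in the first intron, 3 regions lie in a row. The first, at 31.7 kb (chr9:32420843-32421882), had 1.09, 1.05 and 1.02 in control and 1.42, 1.48 and 1.60 in HADA, a rise of 0.51 ± 0.15 (adjusted p = 0.0269), which was lost in 4 of 13 alternatives.

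The next Fli1 region, at 32.6 kb (chr9:32419673-32420598), had 2.22, 2.38 and 4.24 in control and 1.60, 1.34 and 1.23 in HADA, a fall of 1.03 ± 0.25 (log2 difference -1.03, adjusted p = 0.0124). It was lost only without HADA 2 (adjusted p = 0.0531). The third, at 34.1 kb, had 1.55, 1.33 and 1.47 in control and 1.80, 1.92 and 1.93 in HADA, and was not called (0.38 ± 0.15, adjusted p = 0.0609). So the middle site was the tallest of the 3 in every control library and the lowest or the middle one in the HADA libraries. All 3 sites lie within the annotated locus Gm38346 as well, and the first and second also within Gm27201. The rising window holds a RUNX match and the falling window a PU.1 match (GAGGAAGT, the letters of a myeloid and B cell ETS factor), in capitals below.
Fli1 +31.7 kb (chr9:32421103-32421303): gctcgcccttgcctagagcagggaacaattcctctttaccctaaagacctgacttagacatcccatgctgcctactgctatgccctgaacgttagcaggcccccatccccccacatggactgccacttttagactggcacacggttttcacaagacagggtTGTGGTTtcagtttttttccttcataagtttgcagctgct
Fli1 +32.6 kb (chr9:32420184-32420384): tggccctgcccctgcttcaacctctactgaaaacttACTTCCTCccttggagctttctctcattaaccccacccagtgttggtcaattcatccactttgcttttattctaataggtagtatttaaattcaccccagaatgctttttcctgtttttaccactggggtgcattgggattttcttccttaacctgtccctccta

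Further into Fli1, the region at 41.5 kb (chr9:32410700-32412868), the tallest distal one by mean pileup over the 6 libraries though not by relative height in control, had 2.24, 1.27 and 1.69 in control and 2.42, 2.70 and 2.46 in HADA (0.58 ± 0.21, adjusted p = 0.0477, lost in 9 of 14 alternatives). Beyond it, 2 regions had peaks in HADA only. That at 46.0 kb had 0.696, 0.727 and 0.802 and that at 47.6 kb had 0.261, 0.312 and 0.321. The last shared region, at 25.7 kb, was not called (0.02 ± 0.18, adjusted p = 0.943), with summits spread over 933 bases.

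Erg, which is expressed in stem cells and endothelium more than in mature leukocytes, had no shared region within 3 kb of a start. Of its 20 regions, 2 were shared and 15 were found in some libraries of either group. The region in the last, untranslated exon, at 98.8 kb (chr16:95160965-95161873), had relative heights of 0.534, 0.636 and 0.388 in control and 1.26, 1.00 and 0.951 in HADA. It rose by 1.06 ± 0.24 (adjusted p = 0.0107), the groups did not overlap, and the call was lost only on the fold enrichment scale and its ranks. The other shared region, upstream of the canonical start at -50.6 kb, fell (-1.20 ± 0.37, adjusted p = 0.0293). The call was lost in 5 of 13 alternatives, and its summit sequence of 50 bases occurs 4146 times in the genome, which leaves its position at Erg uncertain. Peaks in HADA only lay at 37.7 kb (0.239, 0.143 and 0.160) and 74.5 kb (0.50, 0.468 and 0.407), and a peak in control only lay at -5.4 kb (0.379, 0.473 and 0.551).

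Elf1 had no call at its starts and was higher at 2 sites inside the gene. Its tallest start region (chr14:79718231-79719619), shared with the start of Wbp4, had relative heights of 3.71, 3.09 and 4.53 in control and 3.72, 2.92 and 2.72 in HADA. The groups overlapped (-0.27 ± 0.19, adjusted p = 0.255). The region at 6.5 kb (chr14:79758834-79760087) had 0.690, 0.582 and 0.306 in control and 0.848, 1.09 and 0.852 in HADA (0.89 ± 0.31, adjusted p = 0.0431). It overlaps the locus Gm63327, whose start lies within 3 kb, so it cannot be given to Elf1 alone.

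A second Elf1 region, at 14.8 kb (chr14:79767305-79768127), had 0.603, 0.618 and 0.510 in control and 0.837, 1.01 and 0.975 in HADA (0.71 ± 0.20, adjusted p = 0.0204). In both regions HADA lay above control, and their calls were lost in 7 of 13 and 5 of 14 alternatives. The tallest distal Elf1 site by mean pileup, at 33.9 kb, went the other way in the values it had: 1.62, 1.78 and 3.76 in control, 0.739 and 0.494 in HADA 1 and HADA 2, and no peak in HADA 3. A low HADA-specific peak lay at -11.9 kb (0.185, 0.208 and 0.185).

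Elf4 had the gain with the smallest adjusted p of the ETS members, though the called rise at Erg was of the same size (1.06). In an intron 20.8 kb downstream of the start (chrX:47521920-47522940), control had relative heights of 1.26, 0.855 and 0.898 and HADA had 2.08, 2.09 and 2.01. This was a rise of 1.06 ± 0.19 (adjusted p = 0.00637), or 2.08-fold, with no overlap of the groups, and it was lost only on the fold enrichment scale and its ranks (adjusted p = 0.0533 on ranks). The start region (chrX:47542004-47543874) had 2.17, 1.95 and 3.76 in control and 1.75, 1.78 and 1.73 in HADA, which was not called (-0.52 ± 0.23, adjusted p = 0.0975). HADA was below every control there. The window of the rising site begins with a MYB match on the minus strand, in capitals.
Elf4 +20.8 kb (chrX:47522301-47522501): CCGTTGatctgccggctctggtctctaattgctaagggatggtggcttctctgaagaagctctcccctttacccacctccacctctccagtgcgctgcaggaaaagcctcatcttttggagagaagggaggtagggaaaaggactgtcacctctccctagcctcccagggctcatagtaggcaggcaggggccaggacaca

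Etv6 held 5 of the 12 lower regions. Its start region (chr6:134011816-134013501) had relative heights of 1.74, 1.95 and 2.18 in control and 1.87, 1.75 and 2.19 in HADA, with overlapping groups (-0.02 ± 0.16, adjusted p = 0.943). Of its other 6 shared regions, 5 were called lower in HADA and none was called higher, where 43.1% of all shared regions beyond 3 kb of any start were lower and 13.4% higher. The falling region at 38.0 kb lay within 3 kb of a start of another annotated locus. The 5 lay in introns, and their differences ran from -1.75 to -1.02.

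At 30.3 kb in Etv6 (chr6:134041685-134042558) control had 2.21, 1.91 and 3.51 and HADA had 1.21, 0.870 and 1.00 (-1.27 ± 0.24, adjusted p = 0.00701). At 80.4 kb (chr6:134091754-134093023) control had 1.76, 1.65 and 2.78 and HADA had 1.13, 0.857 and 0.938 (-1.05 ± 0.23, adjusted p = 0.00921). Every HADA library lay below every control library at both sites, and control 3 was the highest. On the scale of the deposited fold enrichment, which divides by the local background, none of the 5 Etv6 calls remained, and the sites at 30.3 and 80.4 kb had values of 0.04 and 0.08.

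The Etv6 region at 185.5 kb, the tallest distal one by mean pileup over the 6 libraries though not by relative height in control, had 1.72, 1.64 and 0.857 in control and 1.77, 1.96 and 1.94 in HADA and was not called (0.49 ± 0.26, adjusted p = 0.145). Scaled to the library background it was called higher (0.87, adjusted p = 0.00702), and with 1 library left out its difference ran from 0.12 to 0.68. A region at 14.1 kb was open in the control libraries alone (0.914, 0.782 and 1.04). The window of the falling site at 30.3 kb is printed as the sequence behind its values, and none of the searched letters occur in it.
Etv6 +30.3 kb (chr6:134042154-134042354): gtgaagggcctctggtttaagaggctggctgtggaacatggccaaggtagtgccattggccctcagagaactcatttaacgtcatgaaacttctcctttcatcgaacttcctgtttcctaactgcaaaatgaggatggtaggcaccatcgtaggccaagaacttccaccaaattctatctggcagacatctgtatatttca

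Gabpa was open only at its start (chr16:84631392-84632682), which it shares with Atp5pf, a subunit gene of the mitochondrial ATP synthase. Its relative heights of 4.28, 4.56 and 5.84 in control and 4.92, 4.40 and 4.91 in HADA were the tallest of the 9 start regions. The groups overlapped (-0.03 ± 0.16, adjusted p = 0.881). A single peak was called in each of the 6 libraries.

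**Figure D3:**
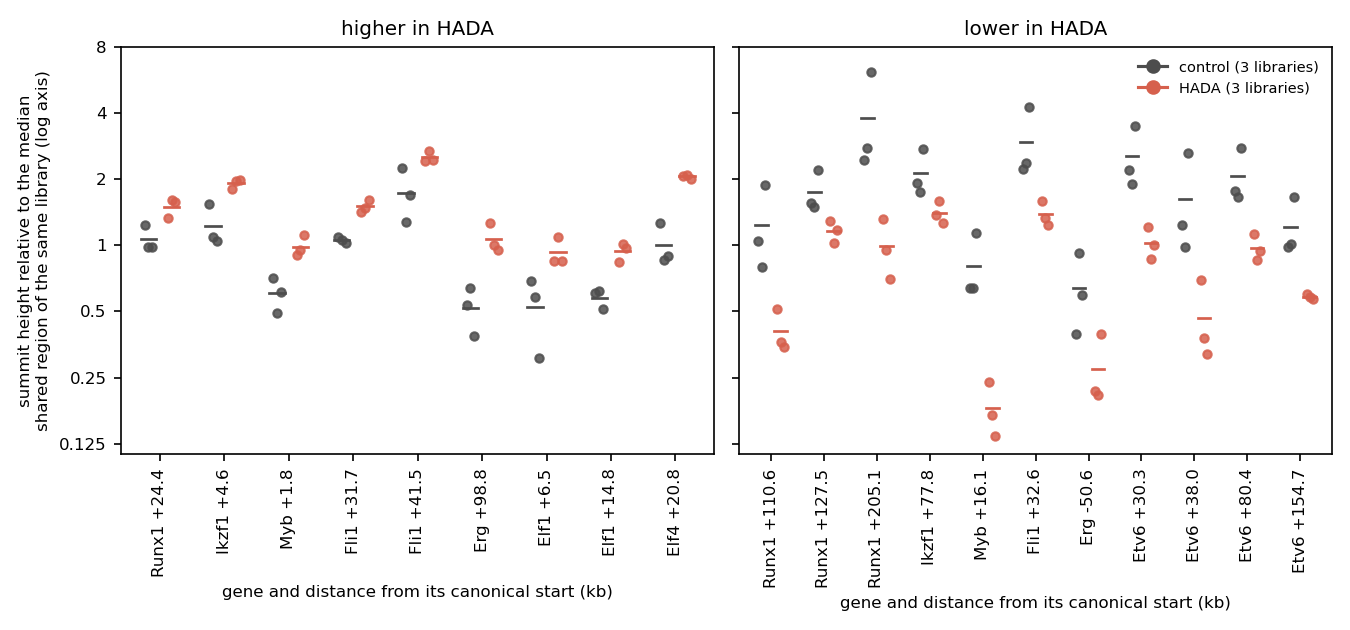
Relative height on a log axis for the 9 regions that were higher (left) and 11 of the 12 that were lower (right) in HADA, named by gene and distance in kb from the canonical start. Points are libraries and lines are group means. The Myb region at 16.1 kb has the lowest mean height in HADA, with libraries from 0.136 to 0.239.

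The highest library of a group was not the same at all sites. Among the 12 lower regions, control 3 was the highest control in 11 and HADA 1 the highest HADA library in 9, beside 55.7% and 46.7% of all lower regions of the genome. Among the 9 higher regions, control 1 was the highest control in 7, beside 74.6% of all higher regions. Control 3 was also the highest control in 12 of the 20 member regions that were not called, beside 51.7% of all uncalled shared regions. With HADA 1, HADA 2 or HADA 3 left out, 3, 2 and 2 member regions were called higher and 9, 8 and 12 lower. Without HADA 3, 10 of the 12 lower calls were kept. The genome counts went from 4417 to 2296, 1379 and 2037 higher and from 5862 to 3914, 2947 and 4060 lower. Without control 3 the members' counts were 8 higher and 13 lower, beside 5444 and 6419 over the genome. Control 3 was also the library with 7 B cell marker peaks.

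The start regions were compared as heights over the library background as well. On that scale the HADA libraries lay above all controls at 5 of 9 start regions, those of Cbfb, Myb, Fli1, Etv6 and Gabpa (two-sided exact permutation p = 0.1 each, the smallest that 3 against 3 allows), and overlapped at Runx1 (p = 0.4), Ikzf1 (p = 0.6), Elf1 (p = 0.8) and Elf4 (p = 0.7). Of all shared regions within 3 kb of any start, 51.5% lay above all controls in this way, so the members' count is near the background. These values include the shift of the median shared region.

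More peaks were called at the 10 genes in HADA, as over the genome. The control libraries held 76, 66 and 76 peaks and the HADA libraries 87, 84 and 77, or 72.7 ± 5.77 against 82.7 ± 5.13 (SD, n = 3), which did not overlap (two-sided exact permutation p = 0.1). Per 10000 peaks of the library, the controls had 18.3, 16.01 and 22.3 and the HADA libraries 19.6, 19.1 and 16.8, and the groups overlapped (exact permutation p = 1). When every list was cut to the length of the shortest, keeping the strongest peaks, the members' mean count was lower in HADA (difference -5).

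Gene by gene, Erg held 7, 6 and 8 peaks in control and 11, 13 and 12 in HADA. Elf1 held 7 in each control library and 10 in each HADA library. At these 2 of 10 genes all HADA counts were above all control counts, and at none below, where 10.6% and 1.98% of protein-coding genes with a peak did so. Etv6 had 17, 14 and 20 peaks in control and 16, 14 and 9 in HADA, which overlapped. Of the 70 regions found in some libraries of a group, 40 were in more HADA than control libraries and 26 in more control than HADA libraries, shares of 57.1% and 37.1% beside 53.7% and 39.2% of all such regions of the genome.

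**Figure D4:**
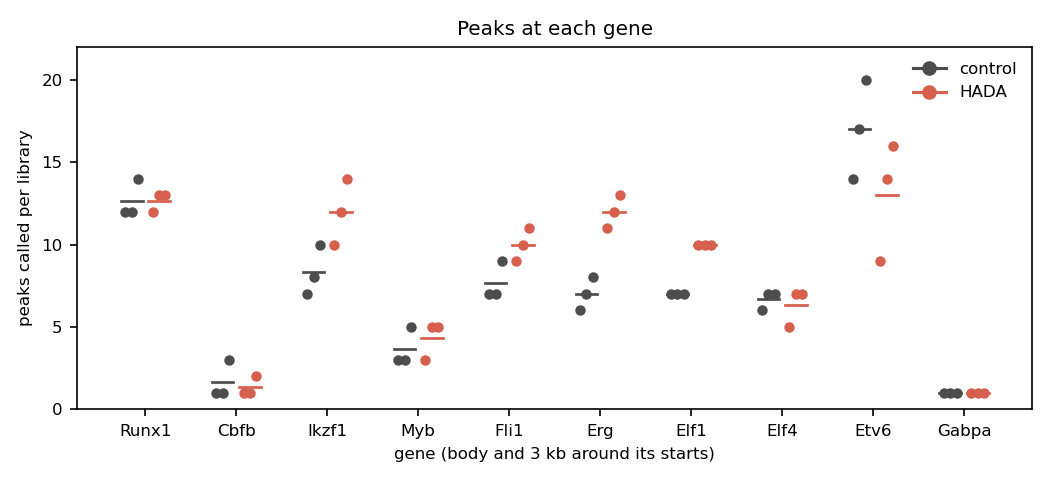
Number of peaks called per library (vertical axis) in the body of each gene or within 3 kb of its starts. Points are libraries and lines are group means, with control in grey and HADA in red. The groups are apart at Erg and Elf1.

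Regions with a peak in all 3 libraries of 1 group and none of the other made up 5.74% (7 of 122, HADA only) and 3.28% (4 of 122, control only) of the members' regions. Over the genome they were 7.01% and 1.88%. All 11 lay beyond 3 kb from a start of the gene, and the share over the genome was not computed. Most peaks at these genes lay there too, with means of 55 in control and 62.3 in HADA, beside 17.7 and 20.3 within 3 kb. The weakest deposited p-value of each library in the other group sets the pileup needed for a peak there. At the mean height of its own group over background, each of the 11 would stand at 1.12 to 3.19 times that pileup, in the library with the lowest ratio. The spread of counts around the mean was not included, so this does not show that the sites were closed there.

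The family members outside the 10 genes were read in the same way at their own start regions. Neither Runx2 (-0.62, adjusted p = 0.0576) nor Runx3 (0.29, adjusted p = 0.164) was called, though 3 of the 9 shared regions of Runx2 were lower and none was higher. Of the Ikaros family, Ikzf3, which encodes the lymphoid factor Aiolos, was higher (1.01, adjusted p = 0.014), and the other 2 with a shared start region were not called. Mybl1 (0.54, adjusted p = 0.0247) and Mybl2 (0.61, adjusted p = 0.0324) were both higher.

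Of 20 further ETS genes, 12 had a shared start region. In HADA 3 of them were higher, namely Ets1, a lymphocyte factor (0.42, adjusted p = 0.0333), Elk3 (0.76, adjusted p = 0.0329) and Etv4 (1.04, adjusted p = 0.0146). Lower were Ets2 (-0.74, adjusted p = 0.0289) and Spi1, which encodes the myeloid and B cell factor PU.1 (-1.01, adjusted p = 0.0153). The GABPα partners Gabpb1 (-0.49, adjusted p = 0.081) and Gabpb2 (-0.01, adjusted p = 0.969) were not called. Over all 34 shared regions of the further ETS genes, 11 were higher, 8 of them at Ets1, and 5 were lower. These family counts are read beside the genome shares, 21.5% higher and 13.2% lower within 3 kb of a start and 18.4% and 24.5% over all shared regions, and were not tested against them.

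Short motifs were counted in the windows of 100 bases on each side of the summits, on both strands. RUNX letters (TGTGGTT) occurred in 9.02% of the members' 122 windows and in 7.12% of all windows, Ikaros letters (TGGGAA) in 18.03% and 15.7%, and MYB letters (CAACNG) in 32.8% and 24.4%. ETS letters (CCGGAAG) occurred in 0.82% and 3.93%, and in none of the 41 shared members' windows beside 6.83% of all shared windows. For PU.1 (GAGGAAGT) the shares were 6.56% and 4.15%, for C/EBP (TTGCNNAA) 11.5% and 8.70%, for AP-1 (TGANTCA) 9.02% and 5.51%, for TCF7 (ATCAAAG) 3.28% and 2.46%, and for the EBF motif 0% and 0.72%. The ETS and PU.1 letters share GGAAG but cannot match at the same position. These matches are letters only and were not tested.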

How the data were processed

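ATAC-seq libraries of peripheral blood leukocytes (3 control, 3 HADA) were used. Per the labels and the study's methods, the authors used Trimmomatic for trimming, Bowtie2 for alignment to GRCm39 and Picard against duplicates, and ran MACS2 on each library by itself. Options and read depths are not given in the sources used here. The deposited peak lists held the fold enrichment (a ratio to the local background), the −log10 p-value and q-value and a score at each summit. The authors' fold and −log10 p-value were solved for whole pileups and the background of the library (1.69 to 2.34 fragments, all peaks solved), and the q-value was used as a filter. The 10 genes, gene lists and motifs were chosen with earlier results of these data known. Log2 pileups of regions with a peak in all 6 libraries were median-centred and fitted with limma 3.58.1 in R 4.3.3 with a trend of the spread on the mean and Benjamini-Hochberg adjustment over 23970 regions. Single values were tested with exact permutations in Python 3.11.15. On data made with known changes, the limma step called 74 of 100 regions changed by 2 (log2), 28 of 100 changed by 1 and 4 of 23770 unchanged ones. Far fewer regions were changed there than were called in the data. The adjusted threshold was therefore stricter, and these rates do not give the sensitivity of the calls above. Regions named were, for each gene, the tallest shared region within 3 kb of a start, up to 3 other called regions by smallest p, up to 3 regions in 1 group only and the tallest distal region. A region that this rule names is not reported here. Further regions of a gene were named after their values were seen. Alternatives were the scaling, the measure, thresholds, the region definition, the replicate block and leaving out libraries. Sequences came from the GRCm39 genome, plus strand, at the summit of the peak with the highest pileup in each region.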

Additional observations from a re-analysis of the deposited data

How the results depend on the processing

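Counts of higher and lower regions at the 10 genes (9 and 12) depended on the measure. On library background scaling 14 were higher, and over the genome 7711. With ranks of the deposited fold, 2 were higher and 4 lower (1832 and 1396 over the genome), and with its log2 value 1 and 3 (1309 and 1716). The fold divides by local background, and the cause of this difference was not tested. With the replicate block 4 were higher and 10 lower (3330 and 5757 over the genome). The replicate numbers did not pair the libraries (r of same-numbered deviations -0.08, 0.08 and -0.38), so the block was not used. Leaving out 1 library gave 2 to 9 higher and 8 to 13 lower (1379 to 5444 and 2947 to 6419 over the genome). Of the 21 calls, 10 to 20 were kept when 1 library was left out, 17 without the trend, and 18 of 18 and 18 of 19 that could be fitted with stricter q-values and with summit windows.

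Of the 8 start regions that were not called, 5 changed sign. On background scaling Runx1 was 0.13, Fli1 0.37, Elf1 0.11, Etv6 0.36 and Gabpa 0.35. Fli1 was 0.00427 with stricter q-values and -0.159 to 0.0837 with 1 library left out, Etv6 0.175 on ranks, 0.0894 on log2 fold and -0.0851 to 0.0675 with 1 library left out, and Gabpa -0.111 to 0.0504. Cbfb (0.64 on background scaling), Ikzf1 (-0.63) and Elf4 (-0.70), both without control 2, kept their sign and passed the threshold (adjusted p = 0.0266, 0.0469 and 0.0438). The Etv6 regions at 30.3 and 80.4 kb were 0.0564 and 0.102 on ranks and 0.0415 and 0.0784 on log2 fold. The difference in peaks at the 10 genes (10) became -5 when each list was cut to the length of the shortest. Regions in all libraries of 1 group and none of the other numbered 0 and 0 within 3 kb of a start. With 1 library left out they numbered 7 to 13 in HADA and 4 to 7 in control. With pileups at hand but no read totals, peaks below a caller's limit have no value here, so a lack of a peak is not a height of 0.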
